A study of Mus musculus with 49 samples.

Results

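The muscarinic acetylcholine receptor genes Chrm1, Chrm2, Chrm3, Chrm4 and Chrm5, 5 of the 52636 genes counted, were described across every cell type and isolation method of the study. They were chosen by name, as the whole gene family, and all 5 were found in the count table. Acetylcholine released by the cholinergic interneurons of the striatum acts on medium spiny neurons (MSNs) through these G protein-coupled receptors. The receptors M1, M3 and M5 couple to Gq and activate phospholipase C, while M2 and M4 couple to Gi/o and inhibit adenylyl cyclase. In the striatum, M1 is known from both the direct pathway MSNs, which carry the dopamine receptor D1, and the indirect pathway MSNs, which carry D2, and M4 is known as more abundant in D1-MSNs, where it opposes D1 receptor signalling through cyclic AMP.

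The study asked how the isolation method shapes RNAseq of the same neurons in the mouse nucleus accumbens (NAc), and compared D1- with D2-MSNs after each of 3 methods, which were sorting of whole cells (whole cell-FACS), sorting of nuclei (nuclear-FACS) and pull-down of tagged ribosomes (RiboTag). After runs of the same numbered library were summed, 47 libraries were used, with 8 D1 and 6 D2 whole cell, 6 D1 and 5 D2 nuclear, 6 D1 and 6 D2 RiboTag libraries labelled male and 5 D1 and 5 D2 labelled female. Whole cell and nuclear libraries were all from males, and the methods state that a separate mouse gave each sample. All mice had the C57BL/6J background, no sample had a treatment in the labels, and ages were not given in the sources used here.

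Cells for whole cell-FACS came from fresh tissue of mice heterozygous for a cytoplasmic fluorophore driven by the Drd1 or the Drd2 promoter. Nuclei with a GFP label came from frozen tissue of mice heterozygous for it, bred from Drd1-cre or Drd2-cre mice with the reporter allele Thy1-loxPSTOPloxP-EGFP-F. RiboTag RNA came from fresh tissue of Drd1-cre or Drd2-cre mice with the allele Rpl22-loxPexon4loxP-exon4-HA, in which Cre switches on an HA-tagged ribosomal protein. The groups therefore stand for cells in which these promoters were active, and the Drd2 promoter is also active in cholinergic interneurons. Libraries were bulk, so that fewer cells of a type and less RNA per cell cannot be told apart.

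Whole cell libraries held 10476223 to 27965357 counts, while totals ran from 3701255 to 68777008 in nuclear and from 24076888 to 45641342 in RiboTag libraries. The 10 highest genes held 84.9 to 88.3% of the counts in RiboTag libraries, and over 50% in whole cell D2 number 2 and in nuclear D1 numbers 1, 5 and 6. Drd1 and Drd2 moved with the labels in every method. All 4 D1-MSN and all 5 D2-MSN markers did so in whole cell and RiboTag libraries, whereas in nuclear libraries Penk, the enkephalin precursor of D2-MSNs, was lower in D2 (log2 fold change -2.42, SE 0.46, edgeR adjusted p = 0.00923). In 6 of the 12 RiboTag libraries labelled male (D1 numbers 1 to 4, D2 numbers 2 and 6), Xist exceeded the summed Y-linked genes Ddx3y, Uty and Eif2s3y, and results from these libraries are given with and without them.

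The 5 receptors are close relatives, and a stretch of their coding sequences is shown because it marks how far the counts of one can be told from those of another. Of 90 aligned bases, 58 (64.4%) were the same in all 5 genes and are printed in capitals, with the differing bases in lower case. The sequences run 5′ to 3′ along the coding strand, were read from GENCODE transcripts of GRCm38, and lie at the second transmembrane segment.
Chrm1, chr19:8678083-8678172, plus strand: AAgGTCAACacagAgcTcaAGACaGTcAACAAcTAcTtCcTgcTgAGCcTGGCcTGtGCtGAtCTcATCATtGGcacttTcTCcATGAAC
Chrm3, chr13:9878633-9878722, minus strand: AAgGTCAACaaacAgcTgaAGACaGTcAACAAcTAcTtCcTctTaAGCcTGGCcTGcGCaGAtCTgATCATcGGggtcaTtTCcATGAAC
Chrm5, chr2:112480515-112480604, minus strand: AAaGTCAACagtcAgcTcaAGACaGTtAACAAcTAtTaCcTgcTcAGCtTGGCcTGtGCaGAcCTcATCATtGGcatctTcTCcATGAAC
Chrm2, chr6:36523354-36523443, plus strand: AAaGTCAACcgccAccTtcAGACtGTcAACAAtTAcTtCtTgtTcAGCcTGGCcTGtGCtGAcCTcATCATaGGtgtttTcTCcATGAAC
Chrm4, chr2:91927417-91927506, plus strand: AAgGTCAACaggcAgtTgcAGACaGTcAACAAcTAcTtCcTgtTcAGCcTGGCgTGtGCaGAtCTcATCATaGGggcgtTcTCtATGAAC
In this window Chrm4 shared 83.3% of its bases with Chrm1 and with Chrm3, 82.2% with Chrm2 and 80.0% with Chrm5. Over the whole coding sequences, the longest exact run shared by any of the 10 pairs was 29 bases, between Chrm1 and Chrm4, and the shortest of the 10 longest runs was 17 bases. Fragments that aligned to several places had been left out of the counts.

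The gene models differ far more in length than the coding sequences do. Each coding sequence lies in a single exon, of 1383 bases in Chrm1, 1401 in Chrm2, 1770 in Chrm3, 1440 in Chrm4 and 1599 in Chrm5, with the stop codon. Chrm1 (ENSMUSG00000032773, chr19:8663789-8683587) spans 19799 bases and Chrm2 (ENSMUSG00000045613, chr6:36388084-36528414) 140331 bases. Chrm3 (ENSMUSG00000046159, chr13:9875486-10360847) spans 485362 bases, nearly all of them intron. For Chrm4 (ENSMUSG00000040495, chr2:91927249-91928688) and Chrm5 (ENSMUSG00000074939, chr2:112479171-112480769) the annotation used here holds the coding length only, with no UTR or intron. The promoter window that RefSeq gives for Chrm4 on GRCm38 (chr2:91921939-91922238) ends 5010 bases before this exon.

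Since counts were taken over the whole gene body, introns add to Chrm1, Chrm2 and Chrm3 and not to Chrm4 and Chrm5. Strand was not used in counting, so that reads of Chrm2 and of the antisense gene 9330158H04Rik, which share 2108 bases, cannot be told apart there. The same holds for 3253 bases of Chrm3 shared with the antisense gene Gm26861 and for 329 bases of Chrm1 shared with Gm22820. No annotated gene overlaps Chrm4 or Chrm5. The nearest to Chrm4 are Mdk at 1117 bases and Dgkz, a diacylglycerol kinase that ends Gq signals, at 4136 bases.

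Levels are given as FPKM, which are CPM (counts scaled to a common library total) over the genes that passed that comparison's filter, divided by the gene span in kilobases. They were scaled within each method, so that a value is compared between D1 and D2 and between genes but not between methods. A log2 fold change is of counts, is positive where D2 is higher, and was called at an adjusted p-value of at most 0.05 from edgeR's quasi-likelihood test over all genes tested. Genes had to pass 2 filters, more than 1 FPM (the CPM of fragments on DESeq2's scaling) in 2 libraries and a minimum FPKM. The filters' FPM and FPKM were scaled over all counted genes and so differ from the FPKM printed here. Members that failed the FPKM minimum were tested with the FPM filter alone, as said at each.

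**Figure D1:**
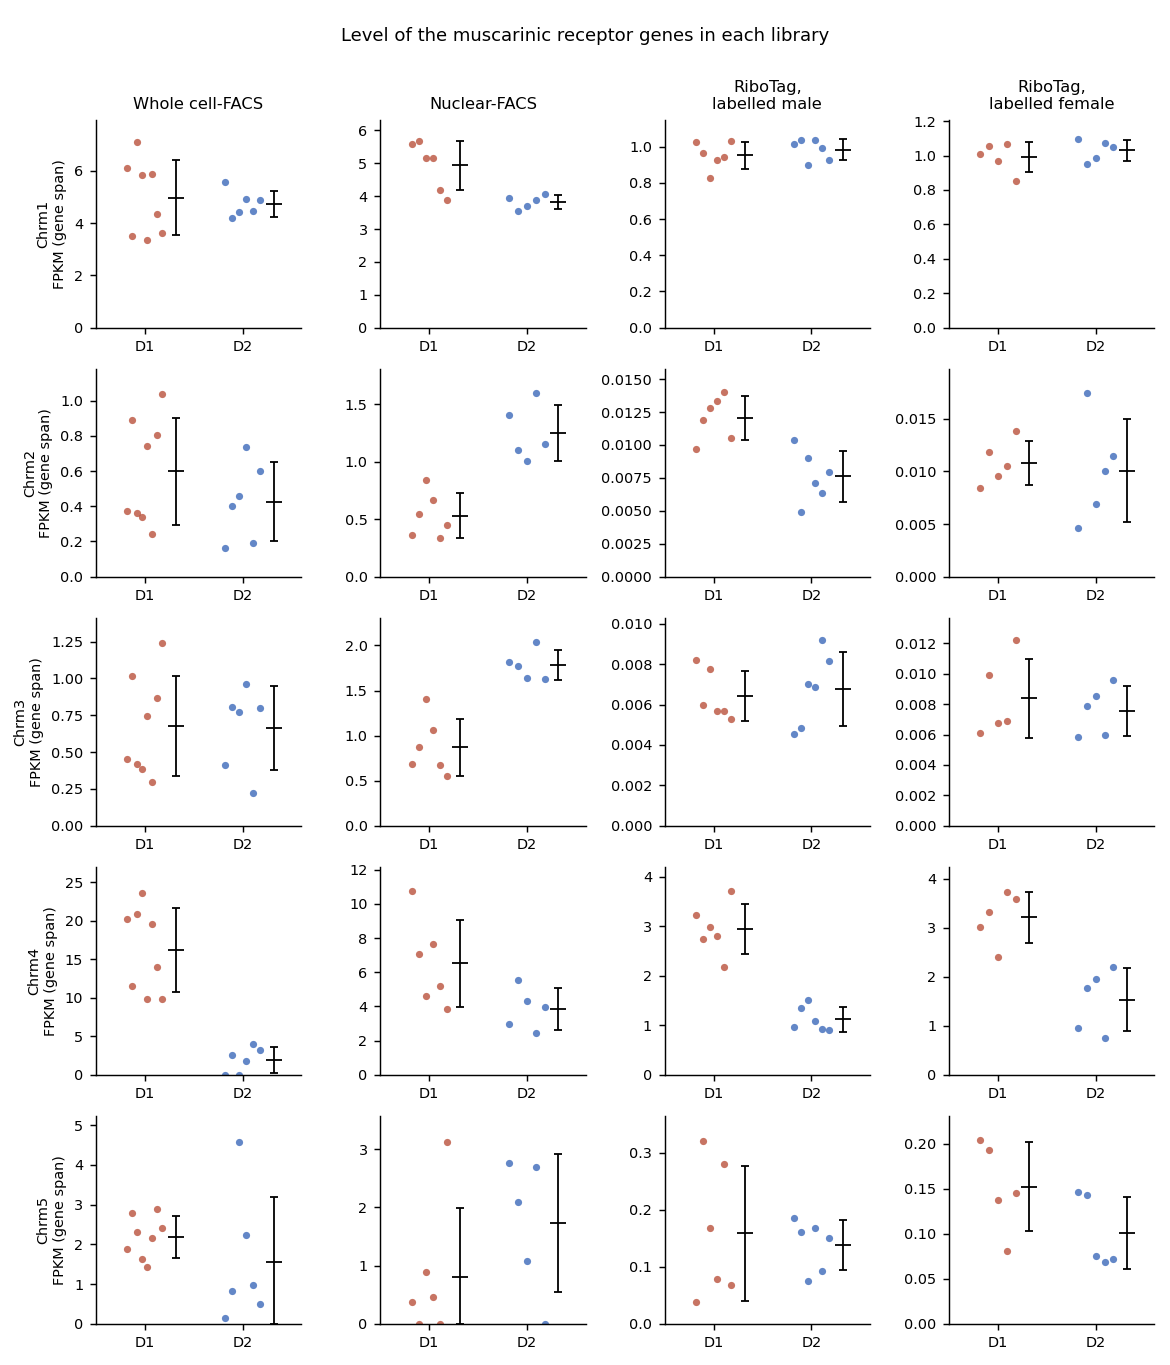
FPKM per kilobase of gene span (vertical axes, from 0, scaled separately in each panel) of the 5 muscarinic receptor genes (rows) in each library of the 4 comparisons (columns), with D1 in red, D2 in blue and the mean and SD beside the points (lower arms are cut at 0). Chrm4 D1 points lie above every D2 point in whole cell (9.85 to 23.6 against 0 to 4.04) and both RiboTag panels, while Chrm1 points overlap in every panel.

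Chrm4, the Gi-coupled receptor M4, was lower in D2-MSNs in whole cell and in both sets of RiboTag libraries. In whole cell D1 libraries its FPKM was 9.85 at the lowest, 16.8 at the median and 23.6 at the highest, and its mean was 16.2 ± 5.49 (SD, n = 8). In D2 it was 0 in numbers 1 and 3, 1.84 in number 4, 2.56 in number 2, 3.27 in number 6 and 4.04 in number 5, and its mean was 1.95 ± 1.68 (SD, n = 6). Every D1 library lay above every D2 library. The counts behind these values were 77 to 379 in D1 and at most 56 in D2. In D2 numbers 1 and 3, where no fragment was counted, a count of 0 allows up to 0.277 and 0.107 raw CPM, while the lowest D1 library had 7.35 raw CPM. Such floors cover counting error only.

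The fitted log2 fold change of Chrm4 in whole cell libraries was -3.08 (SE 0.70), an 8.45-fold lower level in D2, with an adjusted p of 0.0381. It was the 1 called member of the 3 that passed the filter there (Chrm1, Chrm4 and Chrm5), against 1.14% of the 16352 genes tested. The D1 range lay above the D2 range for 1.03% of these genes. The call stood close to the threshold. With each library left out in turn the log2 fold change stayed between -3.47 and -2.66 and the adjusted p ran from 0.0213 to 0.0964, above the threshold without D1 number 1 (0.0694), 3 (0.0883), 4 (0.0964), 5 (0.0607), 6 (0.06) or 7 (0.0584) or without D2 number 4 (0.0736) or 6 (0.0602). With the FPM filter alone, and so 33421 genes tested, the log2 fold change was -2.94 and the adjusted p 0.162, where 0.105% of genes were called.

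RiboTag libraries gave the most precise values for Chrm4. In those labelled male, its FPKM in D1 was 2.18 at the lowest, 2.89 at the median and 3.70 at the highest, and in D2 0.896, 1.02 and 1.52. The ranges did not overlap. D1 had a mean of 2.94 ± 0.510 (SD, n = 6), against 1.12 ± 0.252 (SD, n = 6) for D2. The log2 fold change was -1.38 (SE 0.14), a 2.61-fold lower level in D2, with an adjusted p of 7.85e-08. Without the 6 libraries whose sex genes went against the label it was -1.36 (SE 0.22, adjusted p = 0.000504), and over leaving out each library it ran from -1.51 to -1.32.

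In libraries labelled female, the FPKM of Chrm4 in D1 was 2.41, 3.02, 3.31, 3.58 and 3.74, and in D2 0.747, 0.958, 1.77, 1.96 and 2.21. The 5 D2 values again lay below the 5 D1 values. D2 numbers 1 and 5 were the lowest, at under 1, and the other 3 D2 libraries were nearer to D1. The log2 fold change was -1.08 (SE 0.20), 2.11-fold lower in D2, with an adjusted p of 0.0019, and it ran from -1.24 to -0.91 over leaving out each library. Of all genes tested, 9.3% were called in the libraries labelled male and 4.52% in those labelled female, and for 2.49% and 2.59% the D1 range lay above the D2 range. Chrm4 was 1 of the 2 members called in libraries labelled male and the 1 member called in those labelled female.

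With both filters, nuclear libraries showed a smaller difference for Chrm4 than the other methods, and it did not pass the test. Its FPKM in D1 was 3.85 at the lowest, 6.13 at the median and 10.7 at the highest, and in D2 2.43, 2.98, 3.98, 4.31 and 5.55. The ranges overlapped, with 3 of 6 D1 libraries above all of D2, and the counts were as low as 8 in D1 and 9 in D2. The log2 fold change was -0.78 (SE 0.36) with an adjusted p of 0.141. With edgeR no member was called in nuclear libraries, where 16.1% of 9228 genes were. At an unadjusted p under 0.05 there were 2, Chrm1 and Chrm4, beside 3009 of the 9228 genes. DESeq2 called 2, Chrm1 with both filters, where it called 2209 of 9216 genes, and Chrm2 with the FPM filter alone. With the FPM filter alone the value for Chrm4 was -1.95 (SE 0.51, adjusted p = 0.0161), with 26.2% of 30791 genes called. At that filter it was -2.94 in whole cell and -1.39 and -1.06 in RiboTag libraries labelled male and female. The nuclear difference was thus not the smallest there.

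**Figure D2:**
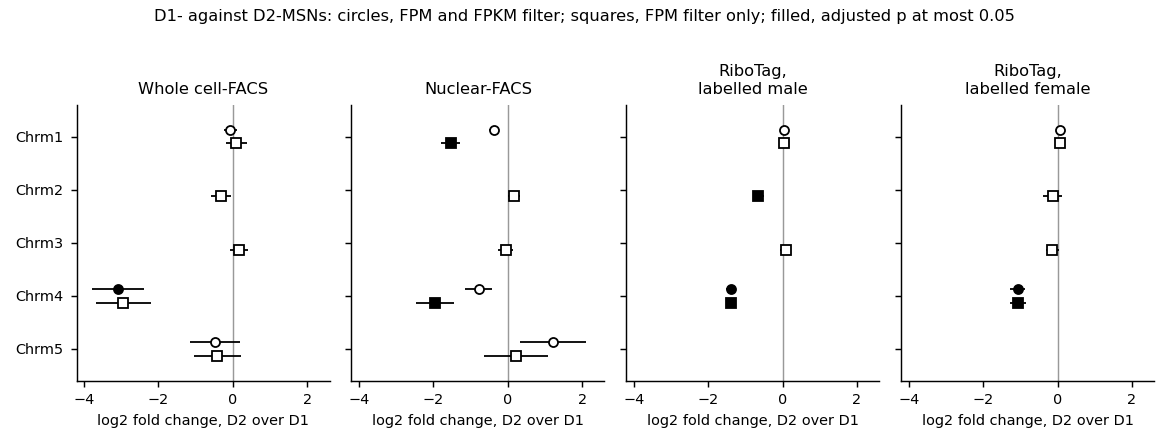
Log2 fold change of D2 over D1 (horizontal axis, with bars of 1 SE) for each of the 5 genes (vertical axis) in the 4 comparisons, as fitted by edgeR with the FPM and FPKM filters (circles) or the FPM filter alone (squares), with filled symbols for called values. With both filters Chrm4 lies at -3.08 in whole cell, -1.38 in RiboTag labelled male and -1.08 in RiboTag labelled female libraries, and Chrm1 near 0 in these 3.

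Chrm1, the Gq-coupled receptor M1, had overlapping levels in D1 and D2 in all 3 methods and passed the test in none. Its whole cell FPKM was 3.34, 5.09 and 7.10 at the lowest, median and highest of D1 and 4.21, 4.67 and 5.58 in D2, so that the D2 range lay within the D1 range. The means were 4.97 ± 1.44 (SD, n = 8) and 4.74 ± 0.493 (SD, n = 6), and the log2 fold change was -0.07 (SE 0.18, adjusted p = 0.943). Its sign turned with other filters and scalings, to at most 0.10.

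RiboTag levels of Chrm1 were close among libraries. With the male label its FPKM ran from 0.829 to 1.03 in D1 (median 0.954) and from 0.900 to 1.04 in D2 (median 1.00), and with the female label from 0.850 to 1.07 in D1 and from 0.949 to 1.10 in D2. The ranges overlapped in both. The log2 fold changes were 0.05 (SE 0.06, adjusted p = 0.703) and 0.06 (SE 0.06, adjusted p = 0.735), and the first was -0.01 (SE 0.08) without the 6 libraries whose sex genes went against the label. These were the smallest standard errors of any member.

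In nuclear libraries, Chrm1 FPKM was 3.89 at the lowest, 5.16 at the median and 5.69 at the highest of D1, and 3.55, 3.69, 3.87, 3.94 and 4.08 in D2. D1 number 6 was below 2 D2 libraries, and the other 5 D1 libraries were above all of D2. The log2 fold change of -0.38 (SE 0.13) missed the threshold with an adjusted p of 0.062. It passed without D1 number 5 (-0.48, adjusted p = 0.0342) or number 6 (-0.49, 0.0231), without the 3 libraries in which the 10 highest genes held over 50% of the counts (-0.61, 0.0402), and with DESeq2 (-0.37, 0.0157). With the FPM filter alone it was -1.54 (SE 0.26, adjusted p = 0.00565), in a set of genes whose median log2 fold change was 0.26 (0.04 with the FPKM filter). The size of this nuclear difference thus depended on which genes set the scale.

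Chrm3, the Gq-coupled receptor M3, and Chrm2, the Gi-coupled receptor M2, failed the FPKM minimum, on the filter's own scale, in all 4 comparisons and were tested with the FPM filter alone. As a yardstick for reads spread over genes that MSNs should not express, the counts per kilobase on 1429 olfactory and vomeronasal receptor genes were multiplied by each gene's span. In whole cell libraries Chrm2 had 1.04 to 1.64 times and Chrm3 1.55 to 4.09 times this background. In nuclear D2 libraries the multiples were 1.48 to 1.88 for Chrm2 and 1.89 to 3.01 for Chrm3. Chrm2 thus stood close to this background in whole cell and nuclear D2 libraries, while in nuclear D1 libraries both genes had 1.71 to 33.1 times and in RiboTag libraries 13.5 to 51.7 times its value. Chrm1 and Chrm4 stood farther above it in nuclear D1 (11.3 to 516 times) than in nuclear D2 libraries (2.25 to 9.42 times), and at 1824 times or more in RiboTag libraries. In whole cell libraries Chrm4 had 12.4 to 120 times the background in D1 and 0 to 34.5 times in D2. For D2 number 3 the background gave 9.56 expected counts of Chrm4 where 0 were counted. The yardstick was thus too high for this short gene in that library.

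**Figure D3:**
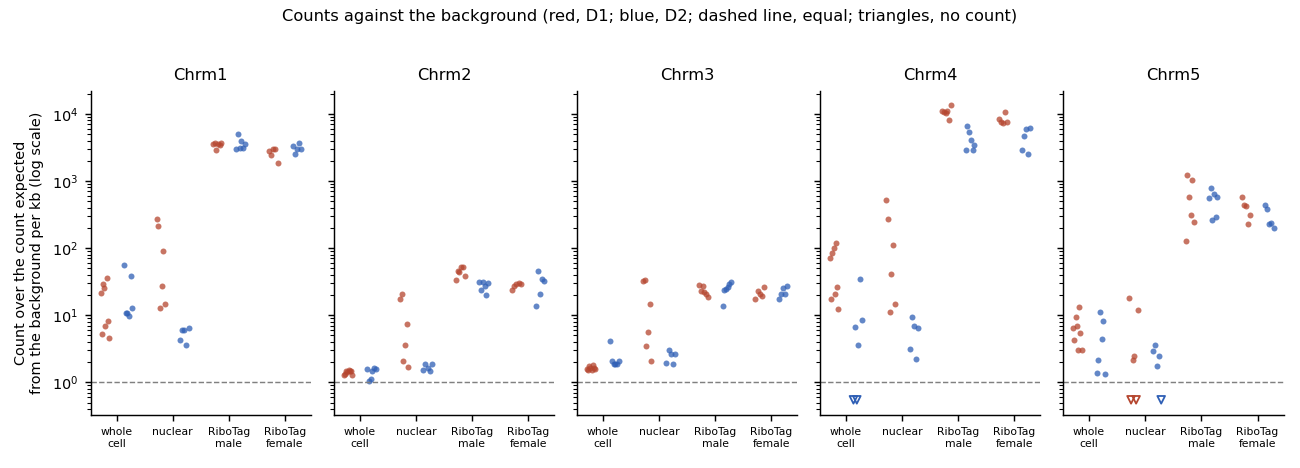
Counts of each gene divided by the background expected from olfactory and vomeronasal receptor genes over the same span (vertical axis, log scale, triangles near the lower edge for libraries with no count), in each D1 (red) and D2 (blue) library by method (horizontal axis), with a dashed line where both are equal. Chrm2 and Chrm3 lie between 1.04 and 4.09 in whole cell libraries, and Chrm4 lies between 2555 and 13350 in RiboTag libraries.

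Neither long gene was called in whole cell libraries. Chrm2 FPKM was 0.242 to 1.04 (median 0.557) in D1 and 0.162 to 0.736 (median 0.429) in D2, and Chrm3 FPKM 0.295 to 1.24 (median 0.599) and 0.222 to 0.965 (median 0.785). Both overlapped between D1 and D2. The log2 fold changes were -0.32 (SE 0.27) for Chrm2 and 0.17 (SE 0.25) for Chrm3, each with an adjusted p of 1.

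In nuclear libraries both long genes had higher FPKM in D2 with ranges that did not overlap. The D2 range lay above the D1 range for 7.26% of the genes that passed both filters, a set that holds neither of them. This share was not taken over the genes with the FPM filter alone. Chrm2 FPKM was 0.339 to 0.839 (median 0.494) in D1 and 1.00, 1.11, 1.15, 1.41 and 1.59 in D2. Chrm3 FPKM was 0.549 to 1.40 (median 0.776) in D1 and 1.62, 1.64, 1.77, 1.82 and 2.04 in D2. Background moved with this difference, and with those of Chrm1 and Chrm4 in nuclear libraries, at 0.578 to 22.2% of the counts in D1 and 32.5 to 52.3% in D2 libraries. The summed raw CPM of cholinergic interneuron markers was also higher in nuclear D2 (60.7 to 103) than in D1 libraries (8.27 to 44.1). So were those of glutamatergic neuron (138 to 180 against 31.5 to 113), GABA interneuron (160 to 255 against 37.3 to 113), microglia (170.5 to 217 against 41.3 to 167) and endothelial markers (136.5 to 231 against 6.05 to 112). Astrocyte and oligodendrocyte sums overlapped. Fitted with the FPM filter alone, the median log2 fold change was 0.48 for cholinergic, 0.66 for GABA interneuron and 1.38 for endothelial markers. It was -0.43 for microglia and -1.25 for glutamatergic markers, against 0.26 for all genes. The last 2 lists thus went the other way in the fit. The part of these cell types in the differences was not tested. After subtraction of the background the mean FPKM was 0.374 and 0.484 for Chrm2 and 0.714 and 1.01 for Chrm3. The fits with the FPM filter alone gave log2 fold changes of 0.16 (SE 0.16, adjusted p = 0.419) and -0.05 (SE 0.20, adjusted p = 0.843). With DESeq2's size factors they were 0.48 (adjusted p = 0.0469) and 0.27 (0.23), so that Chrm2 passed and Chrm3 changed sign.

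In RiboTag libraries labelled male, Chrm2 was lower in D2. Its FPKM was 0.00968, 0.0124 and 0.0140 at the lowest, median and highest of D1 and 0.00488, 0.00753 and 0.0103 in D2, on 16 to 74 counts per library. The ranges overlapped by 1 library each, with 5 of 6 D1 libraries above all of D2. The log2 fold change was -0.65 (SE 0.16, adjusted p = 0.00916), where 8.52% of the 10677 genes with the FPM filter were called. Without the 6 libraries whose sex genes went against the label the value was -0.61 and no longer passed (adjusted p = 0.192).

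Libraries labelled female showed no call for Chrm2, with FPKM of 0.00838 to 0.0138 in D1 and 0.00464 to 0.0175 in D2 and a log2 fold change of -0.13 (SE 0.26, adjusted p = 0.888). Here 3.57% of genes with this filter were called. Chrm3 FPKM in RiboTag libraries ran from 0.00456 to 0.0122 over all 4 groups, and its D1 and D2 ranges overlapped under both labels. Its log2 fold changes were 0.08 (SE 0.14, adjusted p = 0.833) with the male and -0.14 (SE 0.17, adjusted p = 0.795) with the female label.

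Counts from other cell types moved with D1 and D2 in these RiboTag libraries. The summed CPM of 6 cholinergic interneuron markers was 0.882 to 1.74 in D1 and 4.90 to 7.05 in D2 with the male label, and 1.52 to 2.17 and 2.94 to 9.82 with the female label. That of 4 glutamatergic neuron markers went the other way, at 20.01 to 47.0 in D1 and 0.928 to 11.9 in D2 with the male and 15.3 to 38.5 and 1.48 to 7.24 with the female label. Of the 6 GABA interneuron markers, Sst and Npy were lower in D2 under both labels (log2 fold change of Sst -0.95 and -1.31). Th, of the same list, had 0.0696 to 0.224 CPM in D1 and 0.291 to 0.496 in D2 with the male label and overlapping ranges of 0.109 to 0.471 and 0.201 to 0.460 with the female label. None of these markers was at 0 in all libraries of a group. Their part in the differences of Chrm2 and Chrm4 was not tested.

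Chrm5, the Gq-coupled receptor M5, known from midbrain dopamine neurons, was the gene with the fewest counts, at 852 over all 47 libraries. In whole cell libraries its FPKM was 1.44 at the lowest, 2.23 at the median and 2.89 at the highest of D1 and 0.139, 0.906 and 4.57 in D2. In D2, 4 of 6 libraries lay below all of D1, while number 3 lay above all. The log2 fold change was -0.48 (SE 0.67, adjusted p = 0.857).

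Nuclear FPKM of Chrm5 was 0 in D1 numbers 2 and 5 and 0.376, 0.459, 0.882 and 3.12 in the other 4, and 0 in D2 number 7 and 1.08, 2.10, 2.70 and 2.77 in the other 4. The groups overlapped, and the log2 fold change of 1.21 (SE 0.89, adjusted p = 0.357) did not pass. The D2 values were at most 3.56 times the background. In RiboTag libraries Chrm5 had 2 to 15 counts per library, did not pass the FPM filter and was fitted only with every gene that had at least 1 count. Its log2 fold change there was -0.17 (SE 0.39, adjusted p = 0.89) with the male and -0.56 (SE 0.46, adjusted p = 0.653) with the female label. With the male label its mean FPKM for D1 was 0.159 ± 0.119 (SD, n = 6), beside 0.139 ± 0.0441 (SD, n = 6) for D2. With the female label the values were 0.152 ± 0.0494 (SD, n = 5) beside 0.101 ± 0.0400 (SD, n = 5). Neither difference passed the test.

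The order of the 5 levels was compared per kilobase within each group. Chrm4 was highest per kilobase of gene span in 7 of 8 groups, and Chrm1 in whole cell D2 libraries. Neighbours in this order were apart in range in whole cell D1, where Chrm4 (16.2) exceeded Chrm1 (4.97), Chrm1 exceeded Chrm5 (2.19) and Chrm5 exceeded Chrm3 (0.678), and Chrm3 and Chrm2 (0.598) overlapped. In whole cell D2, Chrm1 (4.74) was apart from Chrm4 (1.95), and Chrm4, Chrm5, Chrm3 and Chrm2 overlapped in that order. In RiboTag D1 libraries under both labels Chrm4, Chrm1 and Chrm5 followed each other with ranges apart, whereas in RiboTag D2 the ranges of Chrm4 and Chrm1 overlapped. In nuclear libraries Chrm4 and Chrm1 also overlapped, and Chrm1 was apart from the next gene, Chrm3.

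This order rests on the gene length used. Per kilobase of summed exons, Chrm4 was highest in 2 groups (both RiboTag D1 groups, where it overlapped with Chrm1), Chrm1 in both RiboTag D2 groups and the intron-rich Chrm3 in the 4 whole cell and nuclear groups. Of the summed muscarinic counts per kilobase of span, Chrm4 made up 64.5% ± 6.73 (SD, n = 8) in D1 libraries of whole cells, against 19.9% ± 17.2 (SD, n = 6) in those of D2. Its share was 46.6 and 31.0% in nuclear, 71.8 and 49.2% in RiboTag labelled male and 73.1 and 54.9% in RiboTag labelled female libraries. The share of Chrm1 was 20.1 and 53.2%, 36.6 and 31.1%, 23.6 and 44.0%, and 22.9 and 40.5% in the same order.

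**Figure D4:**
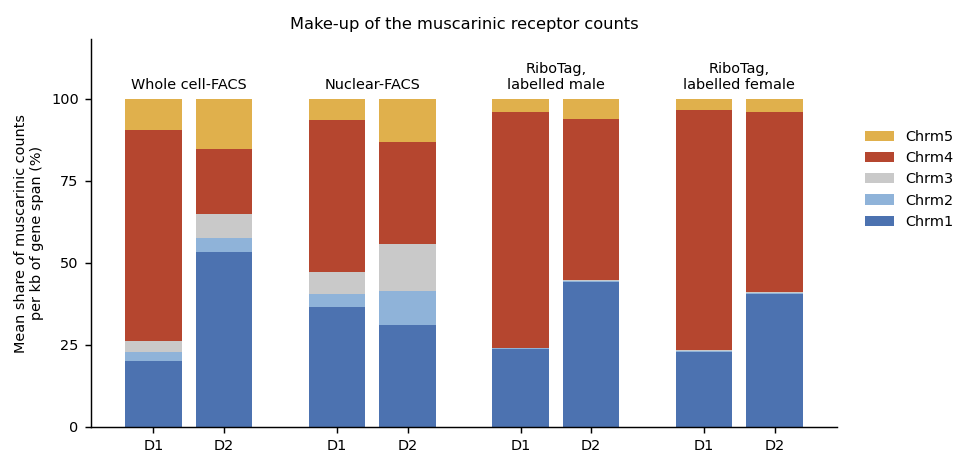
Mean share of each gene in the summed muscarinic counts per kilobase of gene span (stacked bars from 0 to 100%, vertical axis) in the 8 groups (horizontal axis). Chrm4 takes 64.5% in whole cell D1 against 19.9% in D2, and 71.8% against 49.2% in RiboTag libraries labelled male.

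A ratio of 2 genes in the same library needs no scaling, and Chrm4 was set against Chrm1 as the log2 ratio of their counts, each plus 0.5. In whole cell libraries this ratio was -2.33, -2.07 and -1.77 at the lowest, median and highest of D1. In D2 it was -11.5 and -11.0 in the libraries with no Chrm4 count and -5.15, -4.47, -4.33 and -3.92 in the others. All D2 values lay below all D1 values. The D2 median was -4.81. The means differed by -4.62 (exact permutation test, two-sided p = 0.000666, adjusted over 4 comparisons 0.00266). The size of this difference rests in part on the 0.5 added in the 2 libraries with no count, and it ran from -5.18 to -3.67 with 1 library left out.

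With RiboTag, the ratio was -2.57 to -1.93 (median -2.15) in D1 and -3.86 to -3.02 (median -3.76) in D2 labelled male, and -2.46 to -1.71 (median -2.12) and -4.28 to -2.70 (median -2.87) in those labelled female. D1 and D2 were apart under both labels. The differences were -1.44 (exact permutation p = 0.00216, adjusted 0.00433) and -1.23 (exact permutation p = 0.00794, adjusted 0.0106), each the smallest p its group sizes allow. In nuclear libraries it was -3.95 to -2.84 (median -3.42) in D1 and -4.44 to -3.14 (median -3.75) in D2, which overlapped, with a difference of -0.39 (exact permutation p = 0.195, adjusted 0.195). The nuclear difference thus was not larger than the spread between libraries, and the mean D1 ratio in nuclear libraries (-3.42) was below those of whole cell (-2.10) and RiboTag libraries labelled male (-2.17).

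**Figure D5:**
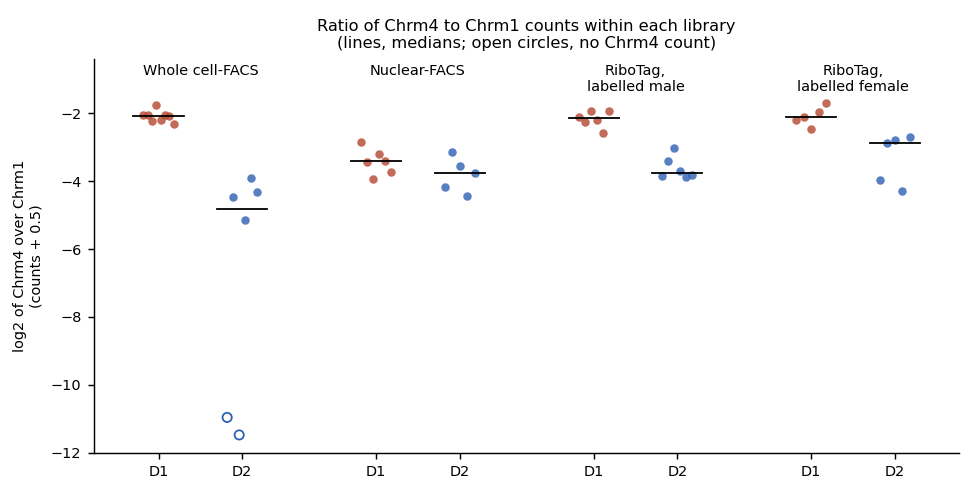
Log2 ratio of Chrm4 to Chrm1 counts, each plus 0.5 (vertical axis), in every library of the 4 comparisons (horizontal axis), with D1 in red, D2 in blue and a line at each group's median. D1 and D2 points are apart in whole cell and RiboTag libraries and overlap in nuclear libraries, and the D2 points at -11.5 and -11.0 (open circles) are the libraries with no Chrm4 count.

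Whether the difference between D1 and D2 varied with the sex label or the method was tested by interaction terms. No member tested was called for the difference between sex labels (Chrm4 -0.31, SE 0.27, adjusted p = 0.858, and Chrm1 -0.01, SE 0.09, adjusted p = 0.993), in an edgeR fit where 0 of 7172 genes (0.0%) were called and 511 had an unadjusted p under 0.05. With the FPM filter alone Chrm2 had -0.52 (SE 0.31, adjusted p = 0.797) and Chrm3 0.23 (SE 0.25, adjusted p = 0.898), where 0 of 11133 genes were called and 753 had an unadjusted p under 0.05. DESeq2 called 3 of the 1471 genes to which it gave an adjusted p, which left Chrm4 without one, and Chrm1 was not called (0.984). Nor was any member called for the label itself (male minus female -0.14 for Chrm4, adjusted p = 0.849, and 0.06 for Chrm1, adjusted p = 0.77), with 0.0418% of genes called. Without the 6 libraries whose sex genes went against the label the interaction of Chrm4 was -0.29 (adjusted p = 0.909). These p-values do not show that the labels act alike.

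Between methods, all male-labelled libraries were fitted together with the FPM filter alone. The D2 over D1 difference of Chrm1 was 1.499 higher in whole cell than in nuclear libraries on the log2 scale (SE 0.36, adjusted p = 0.00314, with 21.9% of 29901 genes called) and the nuclear minus the RiboTag difference was -1.52 (SE 0.37, adjusted p = 0.00652, with 14.6% called). Both contrasts hold the nuclear difference of Chrm1 at this filter, which was -0.38 when genes below the FPKM minimum were left out. For Chrm2, the nuclear minus the RiboTag difference was 0.85 (SE 0.32, adjusted p = 0.0639), which passed with DESeq2 (1.27, adjusted p = 0.0213). For Chrm4, the whole cell minus the RiboTag difference was -1.64 (SE 0.74), which did not pass in edgeR (adjusted p = 1, with 0.12% of genes called). Its whole cell minus nuclear difference was -1.13 (SE 0.78, adjusted p = 0.258). Its nuclear minus RiboTag difference was -0.51 (SE 0.78, adjusted p = 0.815). Neither passed, so that no difference of Chrm4 between methods was called.

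Genes of the acetylcholine system were read from lists drawn up by function. Of the 8 genes of acetylcholine supply and breakdown, 1 passed the filter in RiboTag libraries. In edgeR none was called of 1 tested in whole cell and 2 in nuclear libraries, with 0 at an unadjusted p under 0.05 and 0 by DESeq2. The gene that passed with RiboTag was Ache, the esterase that breaks acetylcholine down, which was higher in D2 under both labels (log2 fold change 0.43, adjusted p = 0.00185, and 0.50, adjusted p = 0.0101). With the FPM filter alone 5 were tested and 3 were higher in D2 under both labels, where 8.52% and 3.57% of all genes were called. They were Ache, the choline transporter gene Slc5a7 (2.81, adjusted p = 1.42e-08, and 2.28, adjusted p = 0.000594) and Chat, the enzyme of acetylcholine synthesis (2.42, adjusted p = 9.01e-09, and 1.92, adjusted p = 0.000618). Both of the latter also mark cholinergic interneurons. In nuclear libraries with this filter, Ache was lower in D2 (-1.53, adjusted p = 0.0388) and Colq, which anchors the esterase, was higher (1.46, adjusted p = 0.0402), of 8 tested. There 26.2% of all genes were called. Mean nuclear FPKM of Ache was 4.47 ± 2.36 (SD) in D1 and 3.665 ± 0.586 (SD) in D2. With both filters no gene of this list was called in nuclear libraries, so that the lower value of Ache rests on this filter. Of the 16 nicotinic receptor genes, 2 were tested in nuclear libraries, of which Chrna4 was higher in D2 (0.85, adjusted p = 0.0449). With both filters 16.1% of all genes were called there. In edgeR none of 4 was called in whole cell libraries (0 at an unadjusted p under 0.05) and none of 2 under either RiboTag label (1 at an unadjusted p under 0.05 in each), and DESeq2 called none there.

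The Gq arm shared by M1, M3 and M5 had 18 genes. In RiboTag libraries 9 were tested and 2 were lower in D2 under both labels, beside 5.22% of all genes with the male and 2.55% with the female label, with a median log2 fold change of 0.04 and 0.03 over those tested. Among them was the neighbour of Chrm4, Dgkz (-0.53, adjusted p = 1.16e-06, and -0.60, adjusted p = 1.56e-05). Kcnq5, a subunit of the potassium channel that muscarinic receptors close, was the 1 of 10 called in nuclear libraries (-0.74, adjusted p = 0.0328), where 10.4% of all genes were lower in D2. With the FPM filter alone 12 of 18 were lower in D2 there, with a median log2 fold change of -1.14 against 0.26 for all genes, of which 20.6% were lower. This was not particular to the Gq arm. With that filter 6 of 6 markers shared by both MSN types (median -1.63) were lower in D2. So were 4 of 4 oligodendrocyte (-1.41), 3 of 5 astrocyte (-1.44) and 3 of 5 D2-MSN markers (-1.28). Medians of nicotinic (1.33), endothelial (1.38), GABA interneuron (0.66) and cholinergic interneuron genes (0.48) were above that of all genes. In whole cell libraries edgeR called none of 11 Gq genes, with 4 at an unadjusted p under 0.05, and DESeq2 called 3.

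The list for the Gi arm shared by M2 and M4 had 19 genes. Among them was Gnal, whose alpha subunit stimulates adenylyl cyclase, so that the counts are not of inhibitory signalling alone. In RiboTag libraries 12 were tested. Here 2 were lower and 4 higher in D2 with the male label, and 2 lower and 3 higher with the female label, beside 5.22% lower and 4.08% higher of all genes with the male and 2.55% and 1.97% with the female label. Their median log2 fold change was 0.16 and 0.11. Gnai1, an inhibitory G protein alpha subunit, was lower in D2 in whole cell (-0.80, adjusted p = 0.0148) and in RiboTag libraries (-0.40, adjusted p = 1.13e-06, and -0.51, adjusted p = 4.11e-06). Kcnj9, a subunit of G protein-gated potassium channels, was lower in D2 as well (-0.58, adjusted p = 3.59e-05, and -0.44, adjusted p = 0.0102).

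Gnb5, the beta subunit that partners the RGS proteins of this arm, was higher in D2 (0.60, adjusted p = 1.66e-08, and 0.45, adjusted p = 5.32e-06), and so was Gnao1, the Go alpha subunit (0.21, adjusted p = 0.00131, and 0.27, adjusted p = 0.000633). Gnal, the alpha subunit that couples the D1 receptor to adenylyl cyclase, was higher in D2 with the male label (0.22, adjusted p = 0.000877) and lower in D2 in nuclear libraries (-0.71, adjusted p = 0.0114). Rgs4, which shortens G protein signals, was lower in D2 in nuclear libraries (-2.24, adjusted p = 0.00968). These were the 2 of 12 called there, beside 10.4% of all genes that were lower in D2. With the FPM filter alone 13 of 19 were lower in D2, beside 20.6% of all genes. Most shared MSN, astrocyte and oligodendrocyte markers were lower with that filter too, as given for the Gq arm. Of 7 genes of receptor desensitization, 4 were tested with RiboTag, and the kinase gene Grk2 was lower in D2 under both labels (-0.22, adjusted p = 0.0168, and -0.27, adjusted p = 0.0162). Of all genes, 5.22% with the male and 2.55% with the female label were lower. In whole cell libraries edgeR called none of 4 (1 at an unadjusted p under 0.05, 1 by DESeq2), and in nuclear libraries none of 4 (1 and 0). The comparisons labelled male and female share no library.

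Genes with patterns most like those of the receptors were sought for Chrm1 and Chrm4, the members that passed the filter in all 3 methods. Over the 37 male-labelled libraries, with log2 CPM centred within method, Chrm4 was closest among 4625 genes to Slc35d3 (Pearson r = 0.92), Gm47288 (0.88) and Gm43857 (0.81). The correlation with Slc35d3 was 0.94 in whole cell, 0.47 in nuclear and 0.93 in RiboTag libraries, while that with Gm47288 was -0.14 in RiboTag libraries. Drd1 came 36th in this order (0.68), and Drd2 had -0.74. Chrm1 was closest to Prpf38b (0.78), Zbed6 (0.78) and Sirpa (0.76), each at or below 0.26 within RiboTag libraries, and had 0.12 with Chrm4. These correlations describe libraries that share cell type, depth and method, and carry no test.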

How the data were processed

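RNA of sorted cells, sorted nuclei or tagged ribosomes was ribo-depleted and made into paired-end libraries by the authors, who aligned reads to GRCm38 with HISAT2 2.0.5 (version per the submitters' processing notes). The table that the authors deposited holds unnormalized counts, which featureCounts had taken over the whole body of each gene, without strand, with fragments over several genes counted for each. Of 49 columns, the repeat of whole cell D1 number 1, whose sample labels conflict, and the further lane of D2 number 3 were each summed with their library. Gene spans and exons were taken from GENCODE for 52489 of 52636 genes.

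Counts were analysed with edgeR 4.0.16 in R 4.3.3 (TMM, quasi-likelihood test, Benjamini-Hochberg adjustment), with SE as the log2 fold change over the square root of F. A gene needed over 1 FPM in 2 or more libraries. Nuclear and whole cell fits also asked for 1 FPKM or more in some library and no value over 50000, and RiboTag fits for 0.1 FPKM in 2 libraries. Log2 CPM used a prior count of 1. Exact permutation tests used SciPy 1.17.1. On simulated data with 200 genes changed by 1.5 on the log2 scale, the test recovered 61.0% of them in whole cell, 66.5% in nuclear, 99.5% in RiboTag male and 100% in RiboTag female comparisons, with 6.87, 0.746, 3.40 and 10.3% of calls false. The changed genes were drawn only from those above a minimum mean count, so that these rates do not cover genes with few counts.

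The members and gene lists were chosen with earlier results of these data known. Named genes were the members, Drd1 and Drd2, up to 5 called genes per list and comparison by size of change, the 3 genes most alike to a member, and genes overlapping a member or within 20 kb. Markers, sex genes and genes that overlap are named as checks. For 1 gene that this rule names, values are not reported here. Alternatives were DESeq2 1.42.0, its size factors, other filters, summed exons, the replicate number as a block, each library left out in turn, runs kept apart, and background subtraction. Leaving out libraries whose sex genes went against the label, or whose 10 highest genes held over 50% of counts, was chosen after seeing the data. Numbers shared by D1 and D2 libraries were not taken as pairs in the main fits.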

Additional observations from a re-analysis of the deposited data

Results flagged for a closer look

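In nuclear D1 libraries, the FPKM of Chrm5 was 3.12 in number 6 and 0 to 0.882 in the other 5, a gap of 0.717 of the whole range. The value rests on 9 counts in a library of 8154682 counts, of which the 10 highest genes held 63.8%. It was the 1 library far from its group among 48 groups tested, and chance marks about 1 in 20 groups.

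The D2 over D1 difference of Chrm1 differed between methods by an interaction test in edgeR. On the log2 scale it was 1.499 higher in whole cell than in nuclear libraries (adjusted p = 0.00314), and the nuclear difference minus that of RiboTag was -1.52 (adjusted p = 0.00652). Both rest on the nuclear libraries at the filter without an FPKM minimum, where 21.9 and 14.6% of genes were called.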

How the results depend on the processing

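Counts limited Chrm5 in all methods and Chrm4 in nuclear libraries, and Chrm2 and Chrm3 were at 1.04 to 4.09 times the background in whole cell and nuclear D2 libraries. The cause of the changes below was not tested.

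Chrm4 in RiboTag libraries kept its call under every alternative run, and the ratio of Chrm4 to Chrm1 kept its calls in whole cell and RiboTag libraries. In whole cell libraries Chrm4 no longer passed with the FPM filter alone (-2.94), no filter (-2.96), the FPKM filter of RiboTag (-2.94), summed exons (-2.94) or the replicate block (-3.80), so that 0 members were called, and leaving out a library gave -3.47 to -2.66 and 0 to 1 members called. Chrm1 in whole cell libraries turned sign with the FPM filter alone or the RiboTag filter (0.099), no filter (0.075), DESeq2 or its size factors (0.084) and summed exons (0.088), and ran from -0.13 to 0.14 over libraries left out.

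In nuclear libraries Chrm1 passed with the FPM filter alone (-1.54), no filter (-1.52), the RiboTag filter (-1.53), summed exons (-1.49), DESeq2 (-0.37) and without libraries dominated by 10 genes (-0.61), and ran from -0.49 to -0.31 over libraries left out. Chrm4 passed with the first 4 of these (-1.95, -1.93, -1.95 and -1.91). The count of members called there was 2 with no filter, the RiboTag filter, DESeq2 or summed exons, 1 with DESeq2's size factors, and 0 to 1 over libraries left out. Of all genes, DESeq2 called 2209 of 9216 with both filters. With its size factors 1482 of 9228 were called with both filters and 8005 of 30791 with the FPM filter alone. Shares of all genes under the other settings are not given here, so that these counts of members carry no reading of their own. Chrm3 turned to 0.27 with DESeq2 or its size factors and ran from -0.11 to 0.055.

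Without libraries of discordant sex genes, RiboTag male Chrm1 was -0.006 and Chrm2 -0.61 (not passing), leaving 1 member called. Over libraries left out, Chrm3 ran from -0.022 to 0.17 with the male and -0.24 to 0.033 with the female label, and Chrm2 from -0.40 to 0.057 with the female label. Between methods, DESeq2's size factors and DESeq2 turned Chrm1 in whole cell minus RiboTag to 0.067 and 0.066. They turned Chrm3 in whole cell minus nuclear to -0.29 and in nuclear minus RiboTag to 0.33. With size factors 2 members were called in nuclear minus RiboTag, beside 2988 of 29901 genes. Per kilobase of summed exons, Chrm4 was highest in 2 groups. DESeq2's size factors moved the median log2 fold change of all genes from -0.09 to 0.04 in whole cell libraries, where calls went from 59 higher and 128 lower in D2 to 145 and 64, and from 0.26 to 0.56 in nuclear libraries with the FPM filter (1725 and 6357 to 3891 and 4114).

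Under the replicate block, Chrm4 was -1.38 with the male and -1.31 with the female label, both called. The block took the genes called by edgeR from 187 to 92 in whole cell, from 319 to 206 in RiboTag female and from 1484 to 0 of 9228 in nuclear libraries (2596 at an unadjusted p under 0.05). Deviations of same-numbered libraries correlated at -0.285 to 0.212. Libraries with different numbers were not compared in this way, so that these values cannot show whether same-numbered samples shared a batch.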
